A study of Mus musculus with 2 samples.

Results

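Socs1, Socs2, Socs3 and Cish encode suppressors of cytokine signalling and were examined as 4 of the 49943 genes on chromosomes 1 to 19, X and Y of the RefSeq annotation (GRCm38.p6, which is the assembly behind mm10). The set was chosen by name and by the S over G1 ratios of break ends in these same libraries, in which Socs3 had been seen higher and Cish lower in S phase. The ratios below therefore describe these genes and were given no test. Counts cover the gene and its 2 kb flanks, a stretch called its span below.

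The data are END-seq libraries of CD43-negative B cells from the spleens of mice aged 4 to 8 weeks. END-seq ligates an adapter to broken DNA ends in agarose plugs, and each read starts at the ligated end, which need not be the base where the break formed. Reads of the plus strand extend to higher coordinates from there, and those of the minus strand to lower ones. The S-phase library came from cells activated with IL-4 (25 ng/mL) and anti-CD40 (1 µg/mL) over 24 to 28 h. The G1-phase library came from quiescent cells that received neither, with the same 24 to 28 h of culture stated. Both titles begin with ATR+c, which the labels do not explain, and the labels state neither the strain and number of mice nor how cells of a phase were obtained. The S-phase library held 21997695 read ends, 20543572 of them on chromosomes 1 to 19, and the G1-phase library held 28933109, 26889564 of them on these chromosomes. There was 1 library per group, so no test, p-value or replicate check was possible, and every difference below is between these libraries and need not be one of the conditions. All 95% intervals are exact and cover counting error only. DNA ends give no expression, so the cell type could not be checked against markers, and fewer cells with a break cannot be told apart from fewer breaks per cell.

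Suppressors of cytokine signalling close a feedback loop. A cytokine such as IL-4 brings its receptor chains together, the bound Janus kinases (JAKs) phosphorylate STAT transcription factors, and STAT dimers switch on genes that include the suppressors. The suppressors then bind receptors or JAKs through an SH2 domain and, through their SOCS box, recruit the elongin B, elongin C and cullin 5 ubiquitin ligase. SOCS1 and SOCS3 also inhibit JAKs directly. SOCS1 restrains interferon-gamma and IL-4 signals, SOCS3 restrains IL-6 receptors that use gp130, SOCS2 restrains growth hormone signals, and CISH, the founding member, is a classical product of STAT5 activation.

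The sequences before the start sites are shown because the densest break ends of Cish, and those of Socs1 in S phase, lay in them, with Socs3 beside them for comparison. RefSeq (GRCm38.p6) promoter entries matched 3 of the 4 genes. Each line runs 5′ to 3′ on the strand of the gene, from 250 bases before the start site to 30 after it. Capitals mark matches to TTCNNNGAA, the spaced palindrome that STAT dimers bind. They cover chr9:107296409-107296688 on the plus strand for Cish, chr16:10785507-10785786 on the minus strand for Socs1 and chr11:117969337-117969616 on the minus strand for Socs3.
Cish: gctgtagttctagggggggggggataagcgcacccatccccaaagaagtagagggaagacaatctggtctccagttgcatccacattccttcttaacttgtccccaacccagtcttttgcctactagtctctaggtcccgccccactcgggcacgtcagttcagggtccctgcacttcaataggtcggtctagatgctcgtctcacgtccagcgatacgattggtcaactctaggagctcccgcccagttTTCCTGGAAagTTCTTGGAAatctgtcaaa
Socs1: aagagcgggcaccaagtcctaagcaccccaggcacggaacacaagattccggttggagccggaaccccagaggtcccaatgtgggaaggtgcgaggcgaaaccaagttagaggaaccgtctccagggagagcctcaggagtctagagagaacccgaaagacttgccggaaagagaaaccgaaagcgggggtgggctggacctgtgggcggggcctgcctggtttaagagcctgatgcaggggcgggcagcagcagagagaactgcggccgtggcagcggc
Socs3: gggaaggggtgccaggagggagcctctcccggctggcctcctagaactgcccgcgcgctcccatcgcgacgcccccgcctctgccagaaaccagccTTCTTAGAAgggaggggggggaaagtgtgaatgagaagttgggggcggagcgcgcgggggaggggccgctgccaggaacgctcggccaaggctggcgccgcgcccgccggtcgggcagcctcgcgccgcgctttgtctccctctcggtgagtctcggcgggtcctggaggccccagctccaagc

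The Cish sequence held 2 matches, TTCCTGGAA at 107296659 to 107296667, beginning on the start site itself, and TTCTTGGAA at 107296670 to 107296678. The Socs3 sequence held 1 match, TTCTTAGAA at 117969512 to 117969520, and the Socs1 sequence held none. Both motifs searched read the same on both strands. In the full RefSeq windows, which run to 50 bases after the start site, 8.29% of 32817 RefSeq promoters held TTCNNNGAA and 0.457% held it at least 2 times. The same arms with 4 bases between them were in 6.94% of promoters and in none of these 3. A match is a string of letters and not a bound site. These full windows differed in base composition, with 53.3% G and C for Cish, 63.3% for Socs1 and 73.3% for Socs3, against a median of 52.7% over all promoters.

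Break ends were counted on all 4 genes in both libraries. Socs1, Socs2 and Socs3 carried more ends for their library's depth in S phase and Cish fewer. Socs1 (chromosome 16, 10783808 to 10785536) had 97 read ends in S phase against 83 in G1 phase, or 4.72 and 3.09 RPM (reads per 1000000 reads of chromosomes 1 to 19), a ratio of 1.53 (1.13 to 2.08). Socs2 (chromosome 10, 95383903 to 95417321) had 353 in S phase and 285 in G1 phase, or 17.2 and 10.6 RPM, a ratio of 1.62 (1.38 to 1.90). Socs3 (chromosome 11, 117966079 to 117970336) had 66 in S phase and 35 in G1 phase, or 3.21 and 1.30 RPM, a ratio of 2.47 (1.61 to 3.83). The intervals of all 3 ratios lay above 1. Cish (chromosome 9, 107296659 to 107302784) had 97 in S phase and 191 in G1 phase, or 4.72 and 7.10 RPM, a ratio of 0.665 (0.515 to 0.853).

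Thus 3 of the 4 genes reached a ratio of 1.5 or more and 1 a ratio of 0.667 or less. Of 49431 genes with at least 20 reads, 15.8% were that much higher in S phase and 9.61% that much lower, and 28.2% had an interval above 1 and 13.3% one below. Among the 30233 genes with a span of at most 15 kb, which Socs1, Socs3 and Cish share, 21.8% were that much higher and 14.9% that much lower. These shares are given for scale only, since the genes were chosen with the contrast known. Scaled to the median gene, whose log2 ratio was 0.11, the ratios were 1.42 for Socs1, 1.51 for Socs2, 2.29 for Socs3 and 0.618 for Cish, which takes Socs1 below 1.5. Scaled to all reads, Cish stood at 0.668, just short of the call. With flanks of 10 kb the ratios of 3 genes missed it, with Socs2 at 1.44, Socs3 at 1.48 and Cish at 0.733.

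**Figure D1:**
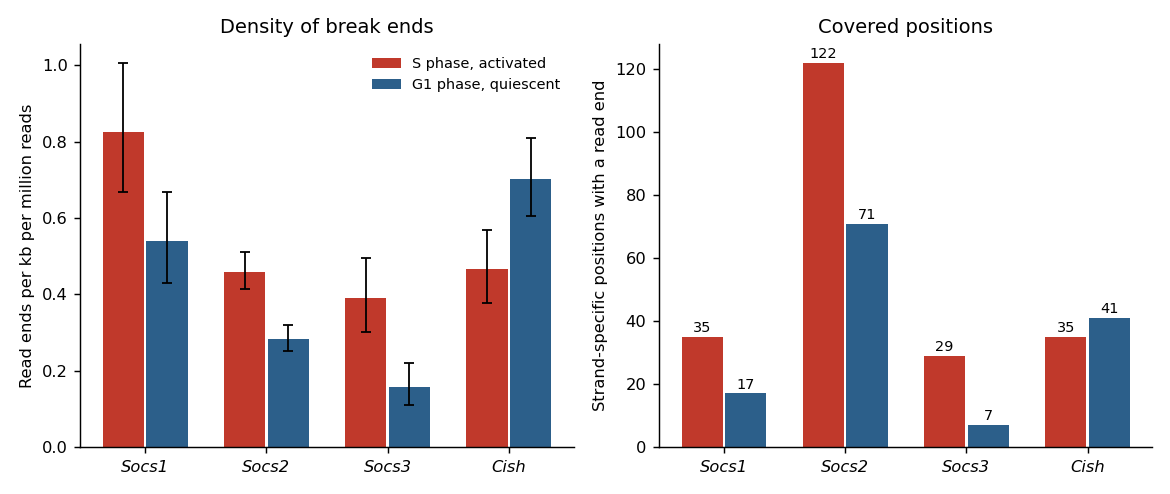
Left, break ends in RPM per kb of span in the S-phase (red) and the G1-phase library (blue), with exact 95% Poisson intervals as bars. Right, the number of strand-specific positions with at least 1 read end. Socs3 had 29 positions in S phase against 7 in G1 phase, and Cish 35 and 41.

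The reads of these genes were stacked on few positions, and more so in G1 phase. The stack is the number of reads that begin on 1 base of 1 strand, and no molecular identifiers separate copies of 1 molecule from separate ends. Over chromosomes 1 to 19 a covered position held on average 2.90 reads in S phase against 3.99 in G1 phase. On Socs3 the values were 2.28 in S phase and 5 in G1 phase, on Cish 2.77 and 4.66, on Socs1 2.77 and 4.88, and on Socs2 2.89 and 4.01. Counting each position once takes the stacks out of the ratios. Socs3 then had 29 positions in S phase against 7 in G1 phase (ratio 3.94, 1.69 to 10.7). Socs1 had 35 and 17, a ratio of 1.96 (1.07 to 3.73), and Socs2 had 122 and 71, a ratio of 1.63 (1.21 to 2.22). The 3 genes were higher in S phase on this count too, where 14.5% of all genes reached 1.5 and 9.35% had an interval above 1. Cish had 35 positions in S phase against 41 in G1 phase, and its ratio of 0.812 (0.502 to 1.31) had an interval that held 1 and missed the size of a call, which 7.53% of all genes reached. An interval below 1 was found for 3.09% of all genes on this count. Of genes with a span of at most 15 kb, 20.1% reached 1.5 in positions and 11.6% stood at 0.667 or less.

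Leaving out the highest stack of each library kept every direction. The highest position held 5 reads on Socs3 in S phase against 11 in G1 phase, 9 and 12 on Cish, 6 and 12 on Socs1, and 8 and 12 on Socs2. Without the highest position of each library the ratio was 3.33 for Socs3, 0.643 for Cish, 1.68 for Socs1 and 1.65 for Socs2. The libraries seldom had an end on the same base. Cish shared 2 of its 35 S-phase and 41 G1-phase positions, Socs2 shared 1, and Socs1 and Socs3 shared 0. Over chromosomes 1 to 19, 1.83% of S-phase positions were also covered in G1 phase.

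Per length, Socs1 held the most break ends in S phase and Cish in G1 phase. In the S-phase library Socs1 had 0.824 RPM per kb (0.668 to 1.01), which was more than 95.96% of all genes with at least 20 reads. Cish followed at 0.466 (0.378 to 0.569), Socs2 at 0.459 (0.413 to 0.510) and Socs3 at 0.389 (0.301 to 0.495), and the intervals of these 3 overlapped. In the G1-phase library Cish had 0.701 (0.606 to 0.808), more than 95.7% of genes, and Socs1 0.539 (0.429 to 0.668), with overlapping intervals. Socs2 followed at 0.283 (0.251 to 0.318). Socs3 was lowest at 0.158 (0.110 to 0.219), a density above only 4.28% of genes. Socs3 thus lay low in G1 phase and near the middle of all genes in S phase, at percentile 55.5. Cish lay high in G1 phase and at percentile 76.2 in S phase.

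Of the 4 genes, Socs1 was the one whose ratio against its surroundings had an interval that held 1. The 50 kb on each side of Socs1 were themselves 1.42 times higher in S phase (1.29 to 1.56), from 881 reads in S phase against 814 in G1 phase. Scaled to them, Socs1 stood at 1.08 (0.797 to 1.47). Around Socs2 the surroundings were near level at 1.04 (0.940 to 1.15), and Socs2 stood at 1.56 (1.33 to 1.83) against them. Those of Socs3 were at 1.15 (1.04 to 1.26), and Socs3 stood at 2.15 (1.41 to 3.34) against them. Around Cish the ratio was 0.975 (0.873 to 1.09), and Cish stood at 0.682 (0.528 to 0.875) against its surroundings.

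Within each library, Cish and Socs1 were denser in reads than their surroundings. Cish had 1.67 times the density of its 50 kb sides in S phase (1.34 to 2.08) and 2.46 times in G1 phase (2.09 to 2.88). Socs1 had 1.92 times in S phase (1.54 to 2.37) and 1.78 times in G1 phase (1.40 to 2.23). Socs3 matched its surroundings in S phase, at 0.988 (0.757 to 1.27), and had 0.459 times their density in G1 phase (0.318 to 0.643). Socs3 thus lay below its surroundings in G1 phase, on 7 positions, and level with them in S phase. As Socs3 was chosen with this contrast known, these values only describe it. Socs2 stood at 1.30 in S phase (1.14 to 1.47) and 0.830 in G1 phase (0.724 to 0.949). Counted as positions, Socs1 in G1 phase stood at 1.49 (0.852 to 2.45), and Socs2 at 1.21 in S phase and 0.840 in G1 phase. The intervals of these values in positions all held 1. On that count the intervals of Cish in both libraries and of Socs1 in S phase stayed above 1. That of Socs3 in G1 phase stayed below it. In windows of 1000 kb centred on the genes the ratio lay between 1.29, around Socs3, and 1.09, around Cish. The windows of 100 kb stood at 1.17 for Socs3, 1.19 for Socs2, 1.48 for Socs1 and 0.895 for Cish.

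Of the nearest protein-coding genes on each side, Tha1 was the one to reach 1.5 and none reached 0.667. Over all genes the shares were 15.8% and 9.61%. Right of Socs3, Pgs1, which encodes a synthase of the cardiolipin pathway, stood at 1.06 (0.921 to 1.23), and left of it Tha1, a threonine aldolase gene, at 1.86 (1.34 to 2.58). Beside Cish, the kinase gene Mapkapk3 stood at 0.895 (0.756 to 1.06) and the methyltransferase gene Hemk1 at 0.945 (0.757 to 1.18). Both intervals held 1. Left of Socs1, Clec16a stood at 0.929 (0.865 to 0.998). Right of it, Tnp2, which encodes a sperm transition protein, stood at 1.18 (0.743 to 1.88), and as it begins 2399 bp away its flank shares reads with Socs1. Beside Socs2, the adaptor gene Cradd stood at 1.23 (1.14 to 1.33) and the mitochondrial ribosome gene Mrpl42 at 1.23 (1.02 to 1.49), both with intervals above 1 like Socs2. The noncoding genes Gm33230, at 1.46 (0.897 to 2.40), and 5730420D15Rik, at 1.15 (0.890 to 1.48), overlap the span of Socs2 and share reads with it.

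**Figure D2:**
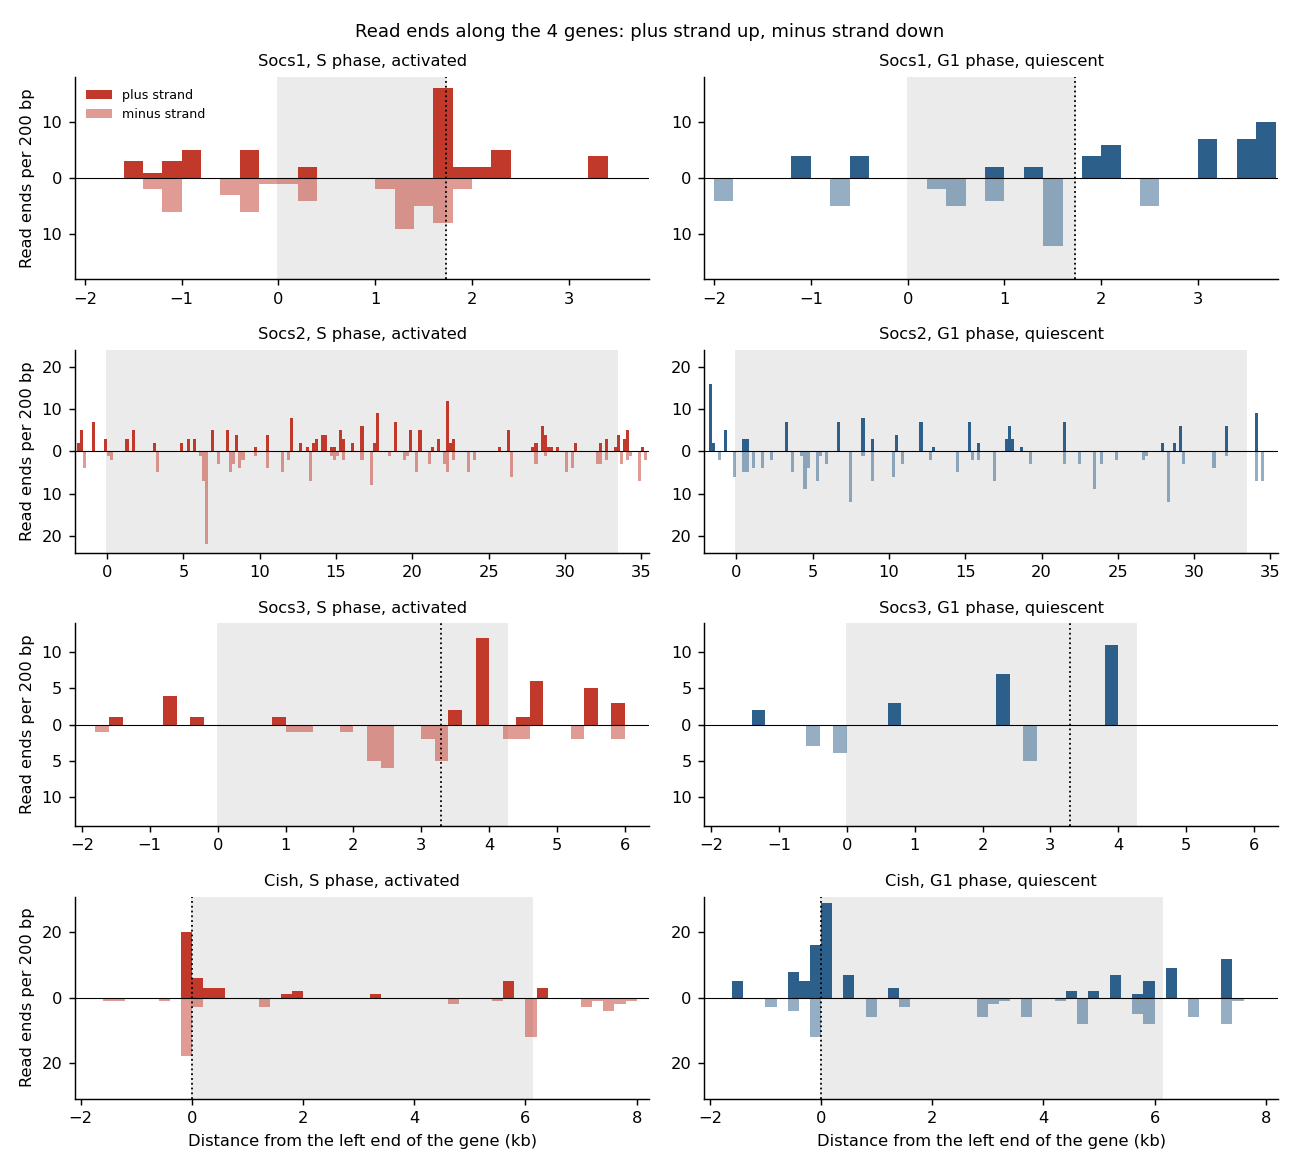
Read ends per 200 bp along the spans of the 4 genes, S phase on the left and G1 phase on the right, with plus-strand reads drawn up and minus-strand reads down. Grey marks the gene and dotted lines the RefSeq start sites. Cish peaks at its start site in both libraries, Socs1 only in S phase, and the right flank of Socs3 is empty in G1 phase.

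Break ends of Cish gathered at its start site in both libraries. The 400 bp centred on it, 3.95% of the span, held 47 of 97 reads in S phase, a share of 48.5% (38.2 to 58.8), and 57 of 191 reads in G1 phase, a share of 29.8% (23.5 to 36.9). In S phase 91.7% of 32812 RefSeq start sites had fewer reads and in G1 phase 94.6%. The bin of 200 bp just before the start site had 38 reads in S phase against 28 in G1 phase (ratio 1.78, 1.06 to 3.01). The bin just after it had 9 and 29, a ratio of 0.406 (0.169 to 0.881), with all 29 G1-phase reads on the plus strand. A bin shifted by 100 bp, which joins parts of both, had 36 reads in S phase against 45 in G1 phase and stood at 1.05 (0.656 to 1.66). Together the 400 bp stood at a ratio of 1.08 (0.718 to 1.62), from 13 positions in S phase against 11 in G1 phase.

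The lower ratio of Cish in reads therefore came from outside the start site. The rest of the span had 50 reads in S phase against 134 in G1 phase (ratio 0.488, 0.346 to 0.681), and 22 and 30 positions, a ratio of 0.697 (0.383 to 1.25). By part, in reads, the upstream flank stood at 1.01 (0.657 to 1.55), the gene at 0.449 (0.297 to 0.665) and the downstream flank at 0.764 (0.424 to 1.34). In positions the upstream flank stood at 1.12 (0.464 to 2.77), the gene at 0.555 (0.265 to 1.12) and the downstream flank at 1.27 (0.386 to 4.43). All 3 of these intervals held 1, and the downstream flank changed sides. One bin in the downstream flank, 107303859 to 107304058, had 1 read in S phase against 20 in G1 phase, and after a shift by 100 bp 1 against 15. The split at the start site was made after the values were seen.

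At single bases the Cish ends lay close together in both libraries. Plus-strand ends filled a stretch of a few bases around the start site. Counting the start site as 0 and upstream bases as negative, the S-phase library had 8 reads at -7, 4 at -5, 1 at -4 and 4 at 3, which is 17 reads on 4 positions. In the G1-phase library there were 10 reads at -11, 2 at -9, 2 at -7, 7 at 0, 4 at 2 and 12 at 3, which is 37 reads on 6 positions. The positions -7 and 3 were the 2 bases shared by both libraries, and the bases 0, 2 and 3 lie inside the first match, TTCCTGGAA, printed above. Minus-strand ends lay farther upstream, with 9 reads at -111 and 1 at -92 in S phase, and 10 at -130 and 2 at -109 in G1 phase. The S-phase library had further minus-strand ends at -59 (1 read), -27 (2 reads), -14 (5 reads) and 57 (3 reads). The G1-phase library had no minus-strand end from -92 to 200.

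Socs1 had ends at its start site almost only in S phase. The 400 bp around it held 29 reads on 11 positions in S phase against 4 reads on 1 position in G1 phase, a ratio of 9.49 (3.33 to 37.2). That was 29.9% of the reads of the span in S phase (21.02 to 40.04) and 4.82% in G1 phase (1.33 to 11.9), for 6.98% of its length. Plus-strand ends at -54 to -79, in the printed sequence, made up 17 reads on 6 positions in S phase, against 0 in G1 phase. The 200 bp bin from 10785408 to 10785607 held 24 reads in S phase against 0 in G1 phase, with a lower limit of the ratio of 7.88. With bins shifted by 100 bp, the bin from 10785508 to 10785707 had 22 reads in S phase against 4 in G1 phase, a ratio of 7.20 (2.44 to 28.7). The bin beside it, 10785208 to 10785407, had 5 reads in S phase against 12 in G1 phase. The rest of the span had 68 reads in S phase against 79 in G1 phase (ratio 1.13, 0.802 to 1.58) with an interval that held 1. By part, in reads, the downstream flank also stood higher, at 2.69 (1.47 to 5.13) from 35 reads in S phase against 17 in G1 phase. The gene stood at 1.31 (0.739 to 2.32) and the upstream flank at 1.17 (0.723 to 1.90). In positions the 400 bp around the start site stood at 10.5 (1.52 to 450). On that count the downstream flank stood at 2.09 (0.670 to 7.68), the gene at 1.74 (0.591 to 5.74) and the upstream flank at 2.06 (0.730 to 6.61). The intervals of these 3 parts held 1.

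Start sites as a class were higher in S phase, which sets the scale for both genes. The 400 bp around 31360 start sites of chromosomes 1 to 19 held 521548 S-phase reads and 451443 G1-phase reads, a ratio of 1.51 in reads and 1.45 in positions. Of 8427 start sites with at least 20 reads, 54.8% reached a ratio of 1.5 and 10.5% stood at 0.667 or less, and the median ratio was 1.60. A start site called higher, as that of Socs1 was, is thus the common case, and its ratio was above that of 97.5% of them. The Cish start site, at 1.08, was above 25.4% of them.

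**Figure D3:**
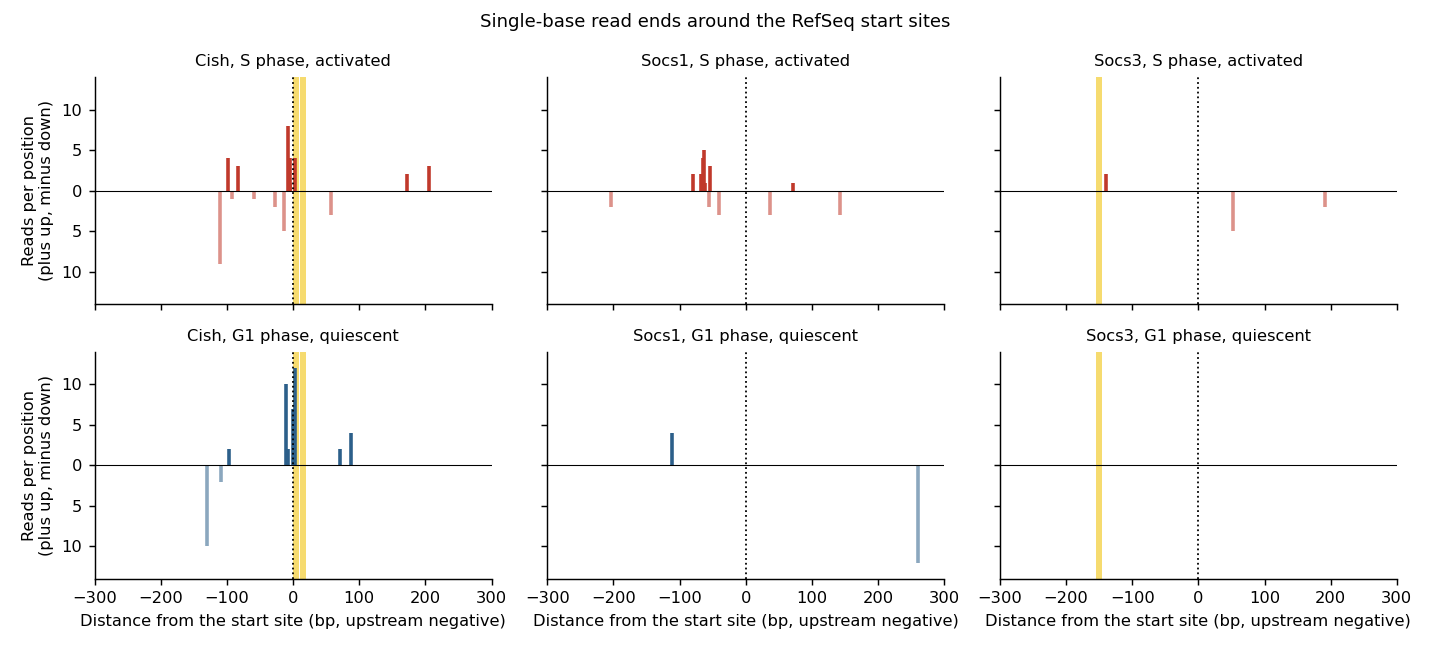
Reads at each base near the start sites of Cish, Socs1 and Socs3, S phase above and G1 phase below, plus-strand reads drawn up and minus-strand reads down. The direction of transcription is to the right and yellow bands are matches to TTCNNNGAA. Cish shows plus-strand ends between -11 and 3 in both libraries, and Socs1 a group at -54 to -79 in S phase only.

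The difference of Socs3 was spread over the gene and its upstream side. Its upstream flank had 21 reads on 9 positions in S phase against 0 in G1 phase, and the lower limit of the ratio was 6.82 in reads and 1.88 in positions. The gene had 38 reads on 16 positions in S phase against 26 on 4 in G1 phase (ratio 1.91, 1.13 to 3.28). The downstream flank had 7 and 9 reads, a ratio of 1.02 (0.322 to 3.07). At the RefSeq start site, which lies inside the longest gene model, there were 9 reads in S phase against 0 in G1 phase. The lower limit of that ratio was 2.58 in reads, and 0.393 in positions, of which there were 3 against 0. The densest bin, 117969879 to 117970078, had 12 reads on 4 positions in S phase and 11 reads on 1 position in G1 phase. All were on the plus strand, and the ratio of 1.43 (0.577 to 3.57) had an interval that held 1. Of the 42 bins of the span 20 had reads in S phase against 7 in G1 phase. With 7 covered positions in G1 phase, the lower part of this comparison rests on very few ends.

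Socs2, the longest of the 4, had ends scattered over its whole length. Of 188 bins 88 had reads in S phase against 54 in G1 phase, and 20 had reads in both. The gene itself stood at 1.72 (1.45 to 2.05), from 304 reads in S phase against 231 in G1 phase. The left flank stood at 0.887 (0.484 to 1.59) and the right flank at 1.59 (0.885 to 2.90). One bin stood out in S phase, 95390303 to 95390502, with 22 reads on 5 positions, all on the minus strand, against 0 in G1 phase, with a lower limit of the ratio of 7.17. Shifting the bins by 100 bp split it into bins of 16 reads in S phase against 0 in G1 phase, and 13 against 7, neither of which reached the 20 reads set for a described bin. Other dense bins leaned to G1 phase, 95417903 to 95418102 with 7 reads in S phase against 16 in G1 phase, and 95382103 to 95382302 with 5 and 16.

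The plus-strand share of reads had an interval that held 50% for all 4 spans in S phase, and for Socs1 and Socs3 in G1 phase. In positions the intervals of Socs2 and Cish in G1 phase held 50% too. The plus strand held 49.5% of Socs1 reads in S phase (39.2 to 59.8) and 55.4% in G1 phase (44.1 to 66.3). For Socs3 the shares were 54.5% in S phase (41.8 to 66.9) and 65.7% in G1 phase (47.8 to 80.9). On Socs2 the plus strand held 53.3% in S phase (47.9 to 58.6) and 42.1% in G1 phase (36.3 to 48.1). On Cish it held 45.4% in S phase (35.2 to 55.8) and 58.1% in G1 phase (50.8 to 65.2). The ratio of Socs2 was accordingly 2.05 (1.62 to 2.60) on the plus strand and 1.31 (1.05 to 1.63) on the minus strand. That of Cish was 0.519 (0.357 to 0.742) on the plus strand and 0.867 (0.601 to 1.24) on the minus strand. Socs3 was higher in S phase on both strands, at 2.05 (1.18 to 3.62) and 3.27 (1.63 to 7.02), and Socs1 stood at 1.37 (0.892 to 2.09) and 1.73 (1.108 to 2.73). With positions counted once, the G1-phase shares were 39.4% (28.0 to 51.7) on Socs2 and 53.7% (37.4 to 69.3) on Cish. The ratios in positions were 2.27 (1.44 to 3.67) on the plus and 1.22 (0.801 to 1.86) on the minus strand of Socs2. Those of Cish were 0.648 (0.313 to 1.31) and 1.00 (0.507 to 1.98).

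The even balance of Socs1 hid a lean of its reads away from the start site on both sides, which was less certain in positions. Reads that run away from the start site made up 80.0% of reads in the 2 kb upstream in S phase (28 of 35, 63.1 to 91.6) and 87.2% in G1 phase (34 of 39, 72.6 to 95.7). In the 2 kb downstream they made up 89.3% in S phase (25 of 28, 71.8 to 97.7) and 85.2% in G1 phase (23 of 27, 66.3 to 95.8). Both sides and both libraries leaned the same way. Over all start sites these shares were 53.7% in S phase and 53.2% in G1 phase upstream, and 54.7% and 54.2% downstream. As positions, the lean at Socs1 rested on 10 of 13 upstream and 10 of 12 downstream in S phase, and on 5 of 6 and 4 of 6 in G1 phase. The reads of Socs3 leaned this way in S phase, with 21 of 27 upstream and 20 of 20 downstream. In G1 phase Socs3 had 11 of 11 upstream, all on 1 position, and 5 of 12 downstream (41.7%, 15.2 to 72.3). Cish leaned this way on the downstream side, with 71.4% in S phase (15 of 21, 47.8 to 88.7) against 81.3% in G1 phase (39 of 48, 67.4 to 91.1). On its upstream side the share was 51.2% in S phase (35.1 to 67.1) against 35.8% in G1 phase (23.1 to 50.2).

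The genes most like Socs3 and Cish were sought among 8145 other protein-coding genes with a span of at most 15 kb and at least 40 reads. Likeness was the distance between the log2 ratios of the plus and of the minus strand, with 1 read added to each count, over the 2 libraries. Nearest to Socs3 were Prxl2b (distance 0.062, ratio 2.70), Uap1l1 (0.078, ratio 2.41) and Hint2 (0.086, ratio 2.41). Nearest to Cish were Magee2 (0.028, ratio 0.629), the odorant receptor gene Olfr1002 (0.042, ratio 0.718) and Pnmt, which encodes the enzyme that makes adrenaline (0.054, ratio 0.613). None of these 6 belongs to the pathway lists below. Those lists hold 68 genes, many with spans too long for the search, against 8145 candidates, so this says nothing about the pathway.

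The other 4 SOCS genes stood between 0.952 and 1.45. Socs7 had 411 reads in S phase against 372 in G1 phase (ratio 1.45, 1.25 to 1.67). Socs5, whose product restrains the epidermal growth factor receptor, had 341 and 321, a ratio of 1.39 (1.19 to 1.62). Socs6 had 306 and 369, a ratio of 1.09 (0.930 to 1.27), and Socs4 had 203 and 279, a ratio of 0.952 (0.791 to 1.15). None of the 4 reached 1.5 or 0.667, which 15.8% and 9.61% of all genes did, and whether they differ from the feedback genes was not tested. They have spans of greater length than Socs1, Socs3 and Cish, and longer spans hold more reads.

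**Figure D4:**
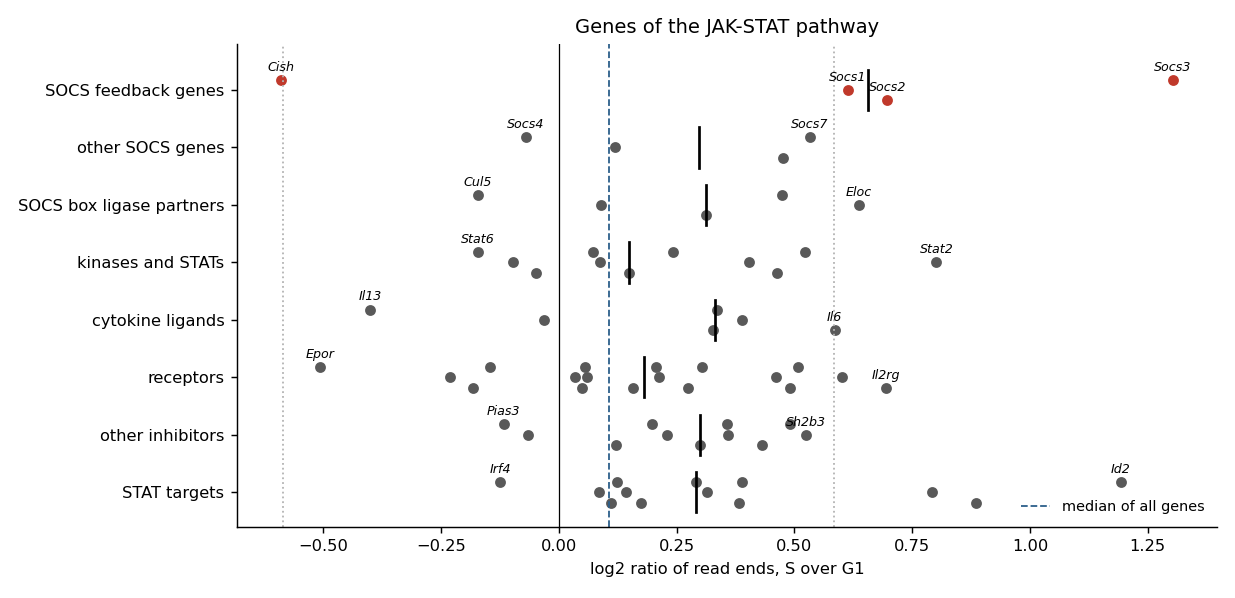
log2 ratios of read ends, S over G1, for the 4 genes (red) and 7 lists of the JAK-STAT pathway (grey), with list medians as black bars. The dashed line is the median of all genes, 0.11, and dotted lines mark ratios of 1.5 and 0.667. Socs3 lies to the right of every pathway gene and Cish to the left.

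The pathway as a whole stood slightly above the median gene. Of 68 other pathway genes, 54 were above a ratio of 1 and 14 below, which is 79.4% above, against 60.1% of all genes. A ratio of 1.5 was reached by 8, or 11.8% against 15.8% of all genes, and 0 stood at 0.667 or less, against 9.61% of all genes. Their median log2 ratio was 0.24, against 0.11 for all genes. An interval leaves out 1 more easily where a gene has more reads. Of the 49431 genes compared, 30233 had spans of at most 15 kb, while many listed genes are longer and hold more reads. The interval counts of the lists below therefore cannot be read as an excess over all genes. Calls by size change with depth too. With at least 100 reads, 11.9% of all genes were called higher in S phase and 5.83% lower. The shares called and the share above 1 were not compared at like length, so they cannot be read as a trait of the pathway.

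Among the kinases and STATs, the median log2 ratio was 0.15 over 11 genes, with 5 intervals above 1 and 0 below, against 28.2% and 13.3% of all genes. Counted as positions, where 9.35% of all genes had an interval above 1 and 3.09% one below, the list again had 5 above and 0 below. Stat2, which serves type I interferon receptors, was highest with 446 reads in S phase against 335 in G1 phase (ratio 1.74, 1.51 to 2.01). Stat6, the factor that IL-4 activates, was lowest with 183 and 270, a ratio of 0.887 (0.731 to 1.07). Receptors had a median of 0.18 over 18 genes, with 8 intervals above 1 and 2 below in reads (all genes 28.2% and 13.3%), and 2 above and 1 below in positions (all genes 9.35% and 3.09%). They ran from the common gamma chain gene Il2rg, with 47 reads in S phase against 38 in G1 phase and a ratio of 1.62 (1.03 to 2.55), to the erythropoietin receptor gene Epor, with 57 and 106 and a ratio of 0.704 (0.501 to 0.980). Cytokine genes had a median of 0.33 over 6 genes, with 1 interval above 1 in reads (all genes 28.2%) and 0 in positions (all genes 9.35%). They ran from Il6 at 1.5 (1.12 to 2.02) to Il13 at 0.758 (0.478 to 1.18).

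The partners of the SOCS box had a median of 0.31 over 5 genes. Eloc, which encodes elongin C, was highest with 209 reads in S phase against 176 in G1 phase (ratio 1.55, 1.27 to 1.91), and the scaffold gene Cul5 was lowest with 467 and 689, a ratio of 0.887 (0.787 to 0.999). Other inhibitors of the pathway had a median of 0.30 over 11 genes. Of their intervals 8 lay above 1 in reads (all genes 28.2%) and 5 in positions (all genes 9.35%). In either count 0 lay below (all genes 13.3% in reads and 3.09% in positions). This list ran from the adaptor gene Sh2b3 at 1.44 (1.23 to 1.69) to the STAT3 inhibitor gene Pias3 at 0.922 (0.723 to 1.17). Targets of STATs had a median of 0.29 over 13 genes. Of their intervals 7 lay above 1 in reads (all genes 28.2%), 2 in positions (all genes 9.35%) and 0 below in either (all genes 13.3% and 3.09%). Id2, an inhibitor of E proteins, had 110 reads in S phase against 63 in G1 phase (ratio 2.29, 1.66 to 3.17), close to that of Socs3. Irf4, a factor of activated B cells, was lowest at 0.918 (0.766 to 1.098).

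The 4 ratios were recounted with other scalings, flanks and strands, and 52 of 52 planned recounts lay on the same side of 1 as the reported ratio. The start site of Cish alone, a recount chosen after seeing the data, lay on the other side. The recounts reuse the same reads of genes chosen with the contrast known, so their common side is not support. Intervals held 1 for Socs1 without flanks, on the plus strand and scaled to its 50 kb sides. They also held 1 for Socs2 in its flanks alone, and for Cish in positions, on the minus strand and in its flanks alone.

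**Figure D5:**
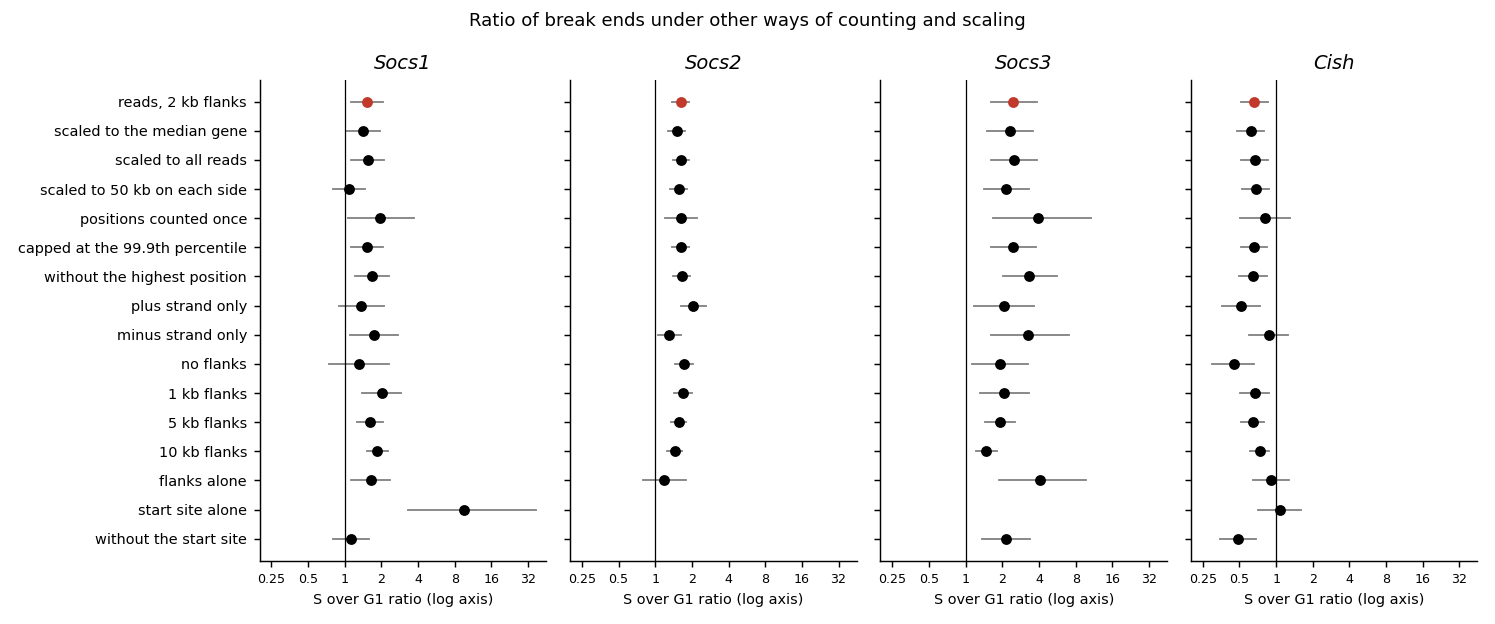
Ratio of read ends, S over G1, of each gene (red, as reported) and under other ways of counting, scaling and choosing the span (black), on a log axis with 95% intervals as lines. The ratios of Socs2 and Socs3 stay above 1 throughout, but the interval of Socs2 in its flanks alone holds 1. Socs1 stands at 1.08 when scaled to its 50 kb sides, and the ratio of Cish crosses 1 only at the start site alone.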

How the data were processed

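Each strand of each library has a bedGraph track of its own. Per the file headers and values, the authors deposited for each base the count of reads that start there, as whole numbers without normalization. The submitters' processing notes name mm10 as build and, with no roles, Bowtie 1.1.2, SAMtools 1.11 and bedtools. What was done with duplicate and multiply mapped reads is not given in the sources used here.

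Sums were made in Python 3.11.15 (numpy 2.4.6, pandas 2.3.3), intervals came from scipy 1.17.1 and plots from matplotlib 3.10.9. Gene limits and promoters came from RefSeq tables of GRCm38.p6. Ratios are S-phase over G1-phase reads, each scaled to the total on chromosomes 1 to 19, with an exact 95% interval that conditions on the summed Poisson count. Shares carry exact Clopper-Pearson intervals. Where G1 phase had 0 reads, the lower limit of the ratio's interval is given. A gene was called at 1.5 or above, or at 0.667 or below. The ratio step was tested on simulated Poisson counts without stacked reads. That is the model of the intervals themselves, so it does not show how well they hold for stacked reads. The genes and all 7 lists were chosen with earlier results of these data known. All 68 listed pathway genes were matched by symbol. Named were the 4 genes, the other SOCS genes, the highest and lowest of each list, neighbours, and the 3 genes most like Socs3 and Cish. Bins described were among the 3 with the most reads per gene, or had 20 reads or more in a library and a ratio from 2 up or from 0.5 down. Start-site splits and the strand count around them were added after the data were seen.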

Additional observations from a re-analysis of the deposited data

How the results depend on the processing

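No paired analysis was possible because each group has 1 library. Of the 52 planned recounts of the 4 ratios, 42 stayed within the interval of the reported ratio and all kept its side of 1. All recounts reuse the same reads, and some of their intervals held 1. The size of a call was missed by Socs1 at 1.42 scaled to the median gene, 1.31 without flanks and 1.37 on the plus strand, by Socs2 at 1.44 and Cish at 0.733 with 10 kb flanks, and by Cish at 0.668 scaled to all reads, 0.682 scaled to its 50 kb sides and 0.812 in positions. Those outside the interval, which also missed it except Socs2 on the plus strand, Socs3 in positions and in its flanks and Cish without flanks, were Socs1 at 1.08 scaled to its 50 kb sides, Socs2 at 2.05 on the plus strand, 1.31 on the minus strand and 1.19 in its flanks alone, Socs3 at 3.94 with positions counted once, 1.48 with 10 kb flanks and 4.07 in its flanks alone, and Cish at 0.449 without flanks, 0.867 on the minus strand and 0.912 in its flanks alone. Of the recounts chosen after seeing the data, the start site alone gave 9.49 for Socs1 and 1.08 for Cish, which turned to the other side of 1, and leaving it out gave 1.13 for Socs1, 0.488 for Cish and 2.13 for Socs3. The plus-strand share without flanks was 11.1% in S phase and 14.8% in G1 phase for Socs1, 39.5% in S phase and 80.8% in G1 phase for Socs3, 60.0% in S phase for Cish, and 38.1% in G1 phase for Socs2. The density over the surroundings moved to 1.12 for Socs2 in S phase with 100 kb on each side and to 2.06 for Cish in G1 phase with positions counted once. Bins with 20 reads or more in a library and a ratio from 2 up or from 0.5 down numbered 4, and 1 with bins shifted by 100 bp. With a minimum of 100 reads the share of all genes called lower was 5.83%. The causes were not tested, apart from what each recount leaves out. The depth of 7 to 41 positions per library on Socs1, Socs3 and Cish limits these ratios, and intervals may be too narrow where reads are stacked.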
